A study of Mus musculus with 18 samples.

Results

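Immune checkpoints are pairs of receptors and ligands through which T cells, macrophages and other cells of a tumor restrain or permit an immune response. The transcripts of 10 such genes, chosen by name, were described in 18 mouse mammary tumors, out of 57126 genes in the count table. They were Pdcd1, Cd274, Pdcd1lg2, Ctla4, Lag3, Havcr2, Tigit, Ido1, Cd80 and Cd86. Each was followed as CPM (counts per 1000000 of the TMM-adjusted library size) in every tumor, by genotype, and against Cd3e, a chain of the T cell receptor complex.

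The tumors came from female F1 hybrids of BALB/c and C57BL/6J whose mammary ducts were injected with adenovirus carrying Cre recombinase at 10 to 12 weeks of age. Cre acted on the ductal epithelium, so that stroma and immune cells kept wild-type Trp53. There were 7 MaP R172H/- tumors and 5 MaP R245W/- tumors, each with 1 missense and 1 deleted Trp53 allele, and 6 MaP -/- tumors without functional p53. Of these, YZ2, YZ6, YZ10, JM1233, JM1564 and RM0014 also carried Rosa26LSL-TdTomato/+. The MaP -/- tumors came from 4 mice, since JM663 and JM833 each gave a pair of tumors (T1 and T2), which leaves 16 mice in all. Tumors are named as the labels name them, although for JM779 and JM836 the study marks the T2 tumor, where the labels give T1, as the one sequenced. The question asked of these genes was whether their levels differed between missense mutants and Trp53 loss. MaP R172H/- libraries were sequenced as 76-nt pairs on a HiSeq and the others as 100-nt pairs on a NovaSeq, so for MaP R172H/- genotype and platform cannot be told apart. The study classed all MaP R172H/- tumors as nonmetaplastic adenocarcinomas of luminal B or HER2-enriched subtype. It classed all the others as triple-negative, with metaplastic tumors in both groups. Molecular subtype therefore cannot be told apart from the MaP R172H/- genotype either.

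PD-1 (Pdcd1) on activated T cells is engaged by PD-L1 (Cd274), made by many cell types including tumor cells, and by PD-L2 (Pdcd1lg2), made mostly by macrophages and dendritic cells. CTLA-4 (Ctla4) competes with the costimulatory receptor CD28 for CD80 and CD86, the B7 molecules of antigen-presenting cells. LAG-3, TIM-3 (Havcr2) and TIGIT are further inhibitory receptors of T and NK cells, and TIM-3 is also made by macrophages and dendritic cells, while IDO1 is an interferon-induced enzyme that breaks down tryptophan.

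Total counts per tumor were between 23113578 and 37365062. Trp53 itself lay between 10.8 and 50.3 CPM in MaP R172H/-, between 9.09 and 59.0 in MaP R245W/- and between 9.43 and 21.6 in MaP -/- tumors. The mutant tumors YZ11 and JM1233 were within the MaP -/- range and RM0014 was below it. Summed over 8 epithelial markers, the level was 375.7 to 8345 CPM in MaP R172H/-, 486.9 to 5938 in MaP R245W/- and 165.1 to 2786 in MaP -/- tumors, with YZ7, JM1233 and JM779-T1 at the low ends. JM833-T2 stood apart by its lymphocytes: 7 B cell markers summed to 546.3 CPM there and to between 1.79 and 44.5 CPM in the other 17 tumors, and Cd3e was at 8.47 CPM against 0.143 to 3.55 CPM elsewhere. JM1126 had the highest sum of 5 fibroblast markers, 20170 CPM. JM1233 and JM1133 had 982.7 and 182.5 CPM of 6 skeletal muscle markers, against at most 42.7 CPM elsewhere, and JM833-T1 had 3753 CPM of 6 adipocyte markers, against at most 360.6 CPM elsewhere. In bulk tumor RNA, fewer cells of a type and less RNA per cell cannot be told apart.

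Before the levels, the bases that precede 3 of the genes are shown, since Cd274 and Ido1 are textbook targets of interferon and Cd86 is the gene whose level differed between genotypes. Each is the 250 bases upstream of the transcription start, 5′ to 3′ on the gene's strand, read from GRCm39 with GENCODE M39 starts. Cd274 lies at chr19:29344279-29344528 on the plus strand, Ido1 at chr8:25087026-25087275 on the minus strand and Cd86 at chr16:36486440-36486689 on the minus strand. Capitals mark, on either strand, the interferon-stimulated response element (ISRE, GAAA and GAAA separated by any 2 bases) and the core of PU.1 sites (GAGGAA), PU.1 being a myeloid transcription factor.
Cd274: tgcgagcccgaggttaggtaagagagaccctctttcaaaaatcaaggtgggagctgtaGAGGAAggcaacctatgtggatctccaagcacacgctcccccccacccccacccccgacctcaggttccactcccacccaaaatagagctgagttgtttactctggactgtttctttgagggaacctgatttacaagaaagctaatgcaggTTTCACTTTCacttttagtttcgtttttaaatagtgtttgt
Ido1: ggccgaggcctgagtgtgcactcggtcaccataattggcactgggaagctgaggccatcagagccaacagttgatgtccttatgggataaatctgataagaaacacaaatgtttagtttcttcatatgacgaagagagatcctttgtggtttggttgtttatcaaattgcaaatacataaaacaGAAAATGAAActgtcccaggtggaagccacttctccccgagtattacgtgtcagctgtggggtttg
Cd86: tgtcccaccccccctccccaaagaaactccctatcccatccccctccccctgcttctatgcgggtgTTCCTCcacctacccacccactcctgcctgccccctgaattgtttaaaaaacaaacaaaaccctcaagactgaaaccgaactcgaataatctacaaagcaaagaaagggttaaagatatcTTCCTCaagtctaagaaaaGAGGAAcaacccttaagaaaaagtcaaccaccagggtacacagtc
The ISRE letters stood 41 to 32 bases before the start of Cd274 and 66 to 57 before that of Ido1, the latter on the shown strand and the former on the other. They were found in 2 of the 10 genes and in 3.32% of 21770 windows of the same length upstream of protein-coding genes. The PU.1 letters occurred at 3 places in Cd86, 1 place in Cd274 and in 5 of the 10 genes, against 22.9% of windows. The AP-1 letters TGANTCA were found upstream of Havcr2 and Cd80 (6.17% of windows), and the gamma-activated site TTCNNNGAA upstream of 0 of the 10 (7.7% of windows). A match of letters is a description of these windows and not a bound site.

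Per kilobase of exon, the genes ranked from Cd86, with a median over the 18 tumors of 3.40 CPM per kb, to Pdcd1lg2, with 0.199 CPM per kb. Havcr2 followed Cd86 at 3.40 CPM per kb and Cd274 was next at 2.62 CPM per kb. Lag3 stood at 1.38 CPM per kb, the highest of the receptors made chiefly by lymphocytes. Cd80 (0.646), Pdcd1 (0.595), Tigit (0.494), Ctla4 (0.259) and Ido1 (0.206 CPM per kb) came below it. Neighbours in this order were often not separated within tumors: Cd86 was above Havcr2 in 10 of 18 tumors, Havcr2 above Cd274 in 11, Cd80 above Pdcd1 in 11, Ctla4 above Ido1 in 8 and Ido1 above Pdcd1lg2 in 9. Cd274 exceeded Lag3, and Tigit exceeded Ctla4, in 15 of 18 tumors each. The low levels rest on few counts, since Ctla4 had 1 to 90 counts per tumor, Tigit 2 to 89 and Pdcd1 4 to 150, and intervals from them cover counting error only.

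**Figure D1:**
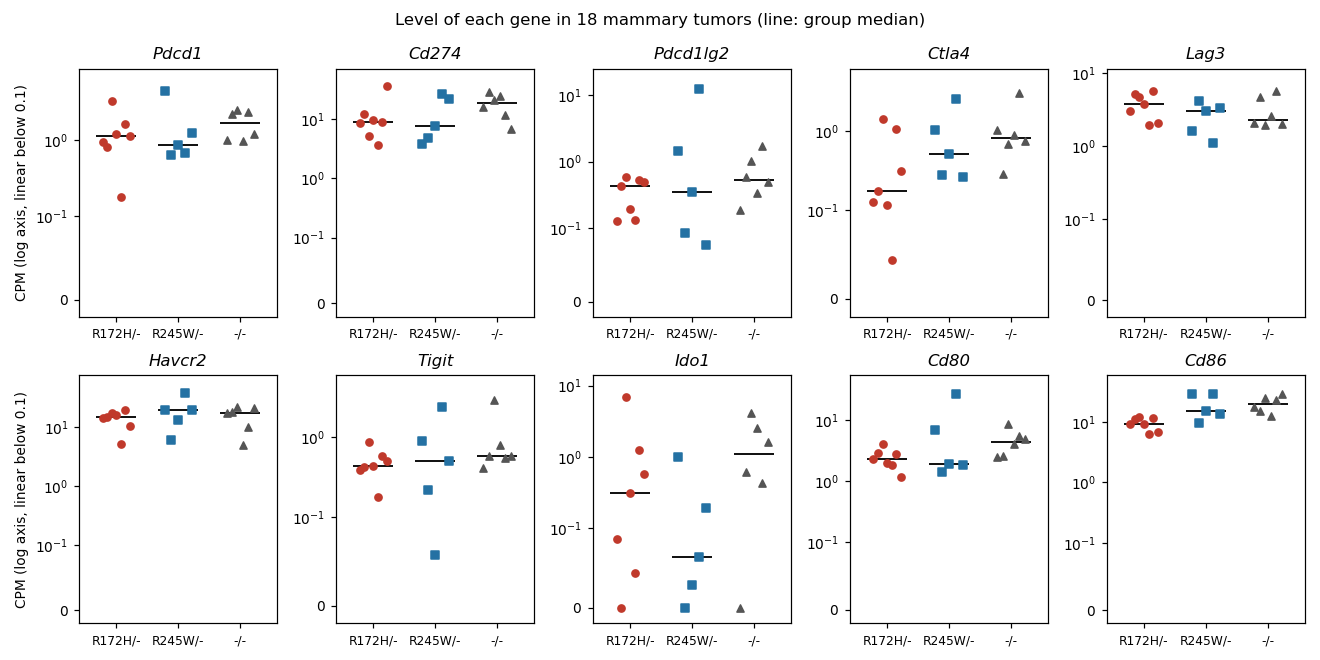
CPM of each of the 10 genes (vertical log axis, linear below 0.1) in the 7 MaP R172H/- (red circles), 5 MaP R245W/- (blue squares) and 6 MaP -/- tumors (grey triangles), with 1 point per tumor and a line at the group median. For Cd86 all MaP R172H/- tumors lie between 6.21 and 11.9 CPM, below all MaP -/- tumors, whereas for the other genes the groups overlap.

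The PD-1 axis began with Pdcd1 at 0.176 CPM at the lowest (YZ7), 1.13 at the median and 3.28 at the highest (YZ4) in MaP R172H/- tumors. In MaP R245W/- tumors Pdcd1 was 4.48 CPM in JM1233, 0.649 in JM1564, 0.860 in RM0014, 0.672 in JM1126 and 1.26 in JM1133. MaP -/- tumors had a lowest level of 0.987, a median of 1.72 and a highest of 2.51 CPM. The groups overlapped, with JM1233 the highest and YZ7 the lowest of all tumors.

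Cd274, which encodes PD-L1, was between 3.65 CPM (YZ7) and 35.9 CPM (YZ11) in MaP R172H/- tumors with a median of 8.96. It stood at 3.82 CPM in JM1233, 4.76 in JM1564, 7.80 in RM0014, 26.4 in JM1126 and 22.1 in JM1133. In MaP -/- tumors it lay between 6.79 CPM (JM779-T1) and 28.4 CPM (JM663-T1) with a median of 18.5. JM1126 and JM1133 were thus high and the other MaP R245W/- tumors low, and the range within each genotype was at least as wide as the differences between group medians. The highest tumor was 9.82 times the lowest in MaP R172H/-, 6.90 times in MaP R245W/- and 4.18 times in MaP -/-. Cd274 overlaps Plgrkt and Gm36043 on the opposite strand, and whether the counting used strand is not given in the sources used here.

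Pdcd1lg2, which encodes PD-L2, differed widely among MaP R245W/- tumors. It was 1.43 CPM in JM1233, 0.0927 in JM1564, 0.344 in RM0014, 12.6 in JM1126 and 0.0764 in JM1133, the last from 2 counts (exact Poisson 95% interval 0.00925 to 0.276 CPM). In MaP R172H/- tumors it lay between 0.130 and 0.596 CPM (median 0.424) and in MaP -/- tumors between 0.188 and 1.72 CPM (median 0.533). Apart from JM1126, JM833-T2 and JM1233 were the highest.

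Ctla4 was low in most tumors. In MaP R172H/- tumors it was lowest at 0.0440 CPM in YZ7, from 1 count (exact Poisson 95% interval 0.00111 to 0.245 CPM), with a median of 0.177 and a highest level of 1.43 CPM in YZ4. In MaP R245W/- tumors Ctla4 was 1.02 CPM in JM1233, 0.278 in JM1564, 0.516 in RM0014, 2.50 in JM1126 and 0.267 in JM1133. MaP -/- tumors had 0.291 CPM at the lowest, 0.819 at the median and 3.04 at the highest, in JM833-T2. The groups overlapped, although 5 of 7 MaP R172H/- tumors were at 0.316 CPM or less.

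Cd80, a B7 ligand, was 1.17 CPM at the lowest (YZ11), 2.25 at the median and 3.98 at the highest (YZ4) in MaP R172H/- tumors. The MaP R245W/- tumors had 6.93 CPM in JM1233, 1.42 in JM1564, 1.89 in RM0014, 26.6 in JM1126 and 1.79 in JM1133. In MaP -/- tumors the lowest level was 2.45, the median 4.38 and the highest 8.51 CPM, in JM663-T2. JM1126 was far above every other tumor. JM1564, RM0014 and JM1133 lay below every MaP -/- tumor and within the MaP R172H/- range. JM1233 lay within the MaP -/- range and above every MaP R172H/- tumor.

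Cd86, the second B7 ligand, separated the MaP R172H/- tumors from the MaP -/- tumors. In MaP R172H/- tumors it was 6.21 CPM at the lowest (YZ7), 9.37 at the median and 11.9 at the highest (YZ4). In MaP -/- tumors it was 12.7 CPM at the lowest (JM833-T1) and 29.0 at the highest (JM779-T1), with 17.3 and 22.7 CPM in the tumors on either side of the middle. MaP R245W/- tumors had 29.2 CPM in JM1233, 9.49 in JM1564, 14.9 in RM0014, 29.2 in JM1126 and 13.5 in JM1133. JM1564 was within the MaP R172H/- range and the other MaP R245W/- tumors were above it. The closest tumors on either side of the gap were YZ4 with 358 counts and JM833-T1 with 411 counts, whose counting intervals of 10.7 to 13.2 and 11.5 to 14.0 CPM overlapped.

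Among the remaining receptors, Lag3 overlapped between genotypes, except that JM1126 and JM1233 lay below every tumor of both other groups. It lay between 1.98 and 5.80 CPM in MaP R172H/- tumors (median 3.76) and between 1.95 and 5.81 CPM in MaP -/- tumors (median 2.32). The MaP R245W/- tumors had 1.64 CPM in JM1233, 4.17 in JM1564, 3.04 in RM0014, 1.12 in JM1126 and 3.40 in JM1133. JM1126, the highest tumor for Pdcd1lg2, Cd80 and Havcr2, was the lowest of all 18 for Lag3.

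Havcr2 was between 5.11 CPM (YZ7) and 19.8 CPM (YZ10) in MaP R172H/- tumors with a median of 15.0. It was 19.6 CPM in JM1233, 6.09 in JM1564, 13.1 in RM0014, 37.7 in JM1126 and 19.9 in JM1133. In MaP -/- tumors it lay between 4.94 CPM (JM833-T1) and 22.3 CPM (JM663-T2) with a median of 17.5. The groups overlapped, and the lowest tumor of each was between 4.94 and 6.09 CPM.

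Tigit was 0.176 to 0.861 CPM in MaP R172H/- tumors with a median of 0.430. In MaP R245W/- tumors it was 0.896 CPM in JM1233, 0.216 in JM1564, 0.0574 in RM0014, 2.34 in JM1126 and 0.496 in JM1133. MaP -/- tumors lay between 0.414 and 2.93 CPM with a median of 0.582. JM1126 and JM663-T2 were the high tumors, and the groups overlapped.

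Ido1 had 0 counts in YZ3, JM1564 and JM836-T1, 1 tumor of each genotype. Taken as 3 counts, the limit that a count of 0 allows was 0.106, 0.0927 and 0.113 CPM in these libraries. The MaP R172H/- median was 0.313 CPM and the highest tumor was YZ4 at 6.96, the MaP -/- median was 1.12 CPM and the highest tumor JM663-T2 at 4.12. In MaP R245W/- tumors it was 0.985 CPM in JM1233, 0.0287 in RM0014, 0.0640 in JM1126 and 0.191 in JM1133. RM0014, JM1126 and JM1133 were below the medians of both other groups. JM1233 was above the MaP R172H/- median and below the MaP -/- median.

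In MaP R172H/- against MaP -/- tumors, Cd86 was the gene that passed the test. It was lower in MaP R172H/- tumors, at 9.47 ± 2.32 CPM (SD, n = 7) against 20.3 ± 6.34 CPM (SD, n = 6), a log2 fold change of -1.08 ± 0.24 (SE) with an FDR of 0.0153 in edgeR's quasi-likelihood test, adjusted by Benjamini-Hochberg over 20954 genes. All 7 MaP R172H/- tumors were below all 6 MaP -/- tumors. In the same test 8.4% of genes were called, 4.73% of all genes as lower, and the groups did not overlap for 4.62% of genes. The call of 1 gene in 10 is near that background.

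The other differences in this comparison did not pass. Cd80 had a log2 fold change of -0.92 ± 0.35 (FDR 0.121, unadjusted p = 0.0193 in edgeR), Tigit -0.99 ± 0.48 (FDR 0.225), Pdcd1lg2 -0.97 ± 0.51 (FDR 0.265) and Ctla4 -1.19 ± 0.72 (FDR 0.325). Those of Cd274 (-0.55 ± 0.48), Pdcd1 (-0.35 ± 0.49), Ido1 (-0.19 ± 1.17) and Havcr2 (-0.13 ± 0.36) were small for their SE, and Lag3 (0.28 ± 0.36) was the gene above 0. Single tumors moved several of these values. Without JM663-T2 that of Tigit was -0.25 (FDR 0.703). Without JM833-T2 those of Ctla4 and Pdcd1lg2 were -0.59 (FDR 0.657) and -0.52 (FDR 0.556), and without YZ4 that of Ctla4 was -1.83 (FDR 0.133). Without YZ11, the highest tumor for Cd274, its value was -1.15 (FDR 0.0852). In all, 9 of the 10 log2 fold changes were below 0, with a median of -0.74, whereas 49.8% of genes were below 0 and the median over all genes was 0.0027.

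In MaP R245W/- against MaP -/- tumors, which share the MaP -/- controls with the comparison above, 0 of the 10 genes passed. Neither did any of the 21452 genes tested (0% called in edgeR), although 11.8% had an unadjusted p below 0.05, which 0 of the 10 genes had. DESeq2's Wald test called 427 genes and 0 of the 10. The largest values were a log2 fold change of -2.59 ± 1.22 for Ido1 (FDR 0.434) and 1.997 ± 1.15 for Pdcd1lg2 (FDR 0.507). The value of Ido1 was -4.45 without JM1233 (FDR 0.215) and -2.03 without JM663-T2. That of Pdcd1lg2 rested on JM1126, without which it was -0.55 (FDR 0.797). For Cd86 the difference was -0.08 ± 0.34 (FDR 0.943), from 19.3 ± 9.30 CPM (SD, n = 5) in MaP R245W/- tumors. The other 7 log2 fold changes were between -0.48 ± 0.55 (Cd274) and 0.74 ± 0.74 (Cd80), and each was within 1 SE of 0.

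Directly compared, the mutants differed in Cd86, which was lower in MaP R172H/- relative to MaP R245W/- tumors (log2 fold change -1.02 ± 0.29, FDR 0.0353, edgeR fit of all 18 tumors). Here 9.4% of 22481 genes were called, 6.49% of all genes as lower, so that 1 in 10 is again near the background. This call was lost when YZ2, YZ6, YZ7, YZ11, JM1233 or JM1126 was left out, with FDR between 0.0533 and 0.119, and Cd86 levels of the groups overlapped through JM1564. Pdcd1lg2 had a log2 fold change of -3.00 ± 0.97 (FDR 0.059) and Cd80 of -1.68 ± 0.61 (FDR 0.0918). DESeq2's Wald test called both (-3.04, FDR 0.0141, and -1.70, FDR 0.0479). Both rested on JM1126 in edgeR: without it they were -0.42 and -0.31, with FDR 0.781 and 0.741. Of the skeletal muscle markers, all 5 tested were also called lower in MaP R172H/- relative to MaP R245W/- tumors (edgeR, median -5.50 on the log2 scale), and their part in these differences was not tested.

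**Figure D2:**
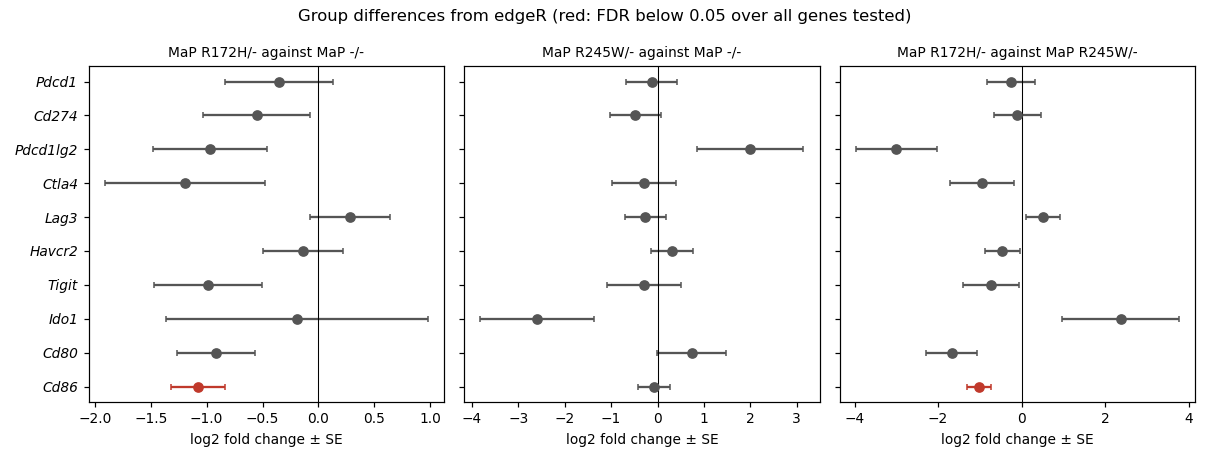
Log2 fold changes of the 10 genes (horizontal axis, with bars of 1 SE) from edgeR in the 3 comparisons, 1 panel each with its own scale, in red where the FDR over all genes tested is below 0.05. Cd86 is called at -1.08 against MaP -/- tumors and at -1.02 against MaP R245W/- tumors, and is at -0.08 between MaP R245W/- and MaP -/- tumors.

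Markers of macrophages and monocytes, cells that carry CD86, moved with the Cd86 difference. Of 10 such markers, 5 were called lower in MaP R172H/- relative to MaP -/- tumors and 9 had log2 fold changes below 0, with a median of -0.74 (edgeR). Over all genes in this comparison, 4.73% were called lower and 49.8% were below 0. The called markers were Mrc1 (-2.03 ± 0.50, FDR 0.0236), Itgam (-1.48 ± 0.31, FDR 0.011), Lyz2 (-1.46 ± 0.35, FDR 0.022), Adgre1 (-1.04 ± 0.20, FDR 0.00688) and Aif1 (-0.94 ± 0.23, FDR 0.0213). The summed level of the list was 798.0 to 1232 CPM in MaP R172H/-, 901.8 to 6722 in MaP R245W/- and 827.1 to 3385 in MaP -/- tumors, and 0 of the markers was at 0 in any tumor. In JM663-T1, the MaP -/- tumor with the lowest sum, Cd86 was 14.9 CPM, above every MaP R172H/- tumor. With the level of Csf1r, the receptor for macrophage colony-stimulating factor, as a covariate, the log2 fold change of Cd86 was -0.68 with an FDR of 0.246 against MaP -/- and -0.58 with an FDR of 0.108 against MaP R245W/- tumors. Over all genes, the covariate left 388 calls against MaP -/- tumors, where the main fit had 1760. Against MaP R245W/- tumors it left 2036, where the main fit had 2114. What part macrophage content had in the Cd86 difference was not tested beyond these values, and neither platform nor molecular subtype can be told apart from genotype in it. Csf1r itself was 169.3 ± 15.4 CPM in MaP R172H/- (SD, n = 7), 352.0 ± 346.6 in MaP R245W/- (SD, n = 5) and 247.1 ± 74.8 CPM in MaP -/- tumors (SD, n = 6).

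**Figure D3:**
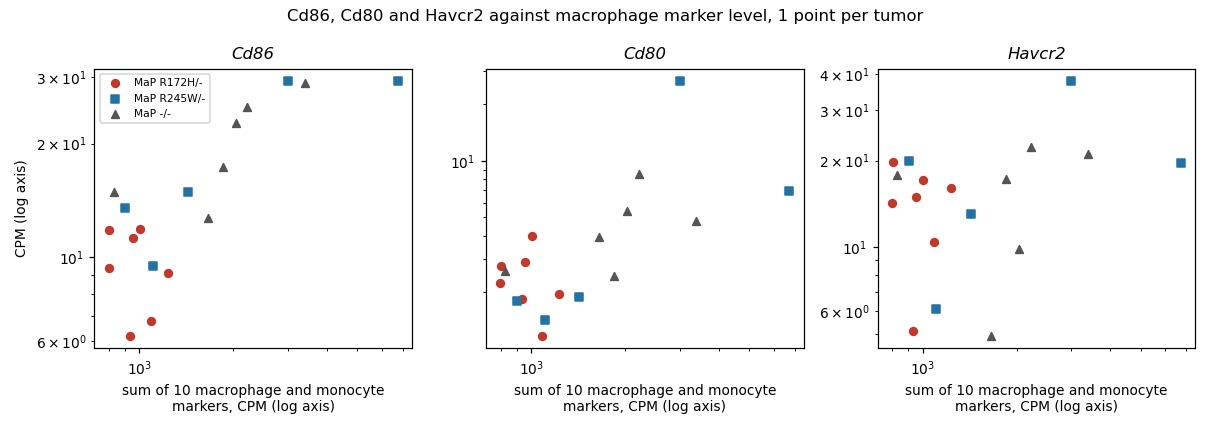
CPM of Cd86, Cd80 and Havcr2 (vertical log axes) against the summed CPM of 10 macrophage and monocyte markers (horizontal log axis), 1 point per tumor, coloured by genotype. The 7 MaP R172H/- tumors sit between 798.0 and 1232 CPM of marker level and below 12.7 CPM of Cd86, and JM1233 lies farthest right at 6722 CPM.

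Cd3e, which stands here for T cell content, was 1.02 CPM at the median of MaP R172H/- tumors (range 0.259 to 3.55), 0.344 in MaP R245W/- (0.143 to 1.97) and 1.496 in MaP -/- tumors (0.711 to 8.47). It rested on 5 counts in JM1564 and in RM0014 and on 251 in JM833-T2. The relation of each gene to it was measured within genotypes, as a slope of log2 level per log2 unit of Cd3e in an edgeR fit of all 18 tumors with genotype as a term. The same slope was fitted for 22480 genes.

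Ctla4 passed this test, with a slope of 0.82 ± 0.18 and an FDR of 0.0339, where 1.33% of genes were called with a positive slope. Its call was lost, at FDR between 0.0504 and 0.0985, when YZ2, YZ4, YZ10, JM1564, RM0014 or JM833-T2 was left out, while the slope stayed between 0.73 and 0.92 over all 18 omissions. With the tumors of 1 mouse summed, so that each mouse counted once, the slope was 0.85 and the call was also lost (FDR 0.0575). Pdcd1 had a slope of 0.51 ± 0.15 (FDR 0.102), Ido1 of 1.14 ± 0.43 (FDR 0.203) and Pdcd1lg2 of 0.72 ± 0.33 (FDR 0.311). These and Ctla4 had an unadjusted p below 0.05 in edgeR, 4 of 10 genes against 8.76% of all genes with a positive slope. Cd80 (0.32 ± 0.21), Tigit (0.31 ± 0.25), Cd86 (0.16 ± 0.09), Lag3 (0.15 ± 0.14) and Havcr2 (0.12 ± 0.15) had smaller slopes that did not pass, and Cd274 had -0.02 ± 0.25. The median over the 10 genes was 0.31 and over all genes -0.01.

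As a reference for these slopes, 11 of the 13 other T cell markers were called, among them Cd2 (1.08 ± 0.15) and Cd3g (1.02 ± 0.09). Of 14 costimulatory and other inhibitory receptors, 4 were called: Icos (0.98 ± 0.13), Cd96 (0.91 ± 0.12), Cd226 (0.83 ± 0.14) and Cd28 (0.70 ± 0.11). Icos and Cd28 are the costimulatory relatives of Ctla4, whose slope of 0.82 lay between theirs. None of 14 further ligands of these receptors was called in edgeR, and 2 had an unadjusted p below 0.05.

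**Figure D4:**
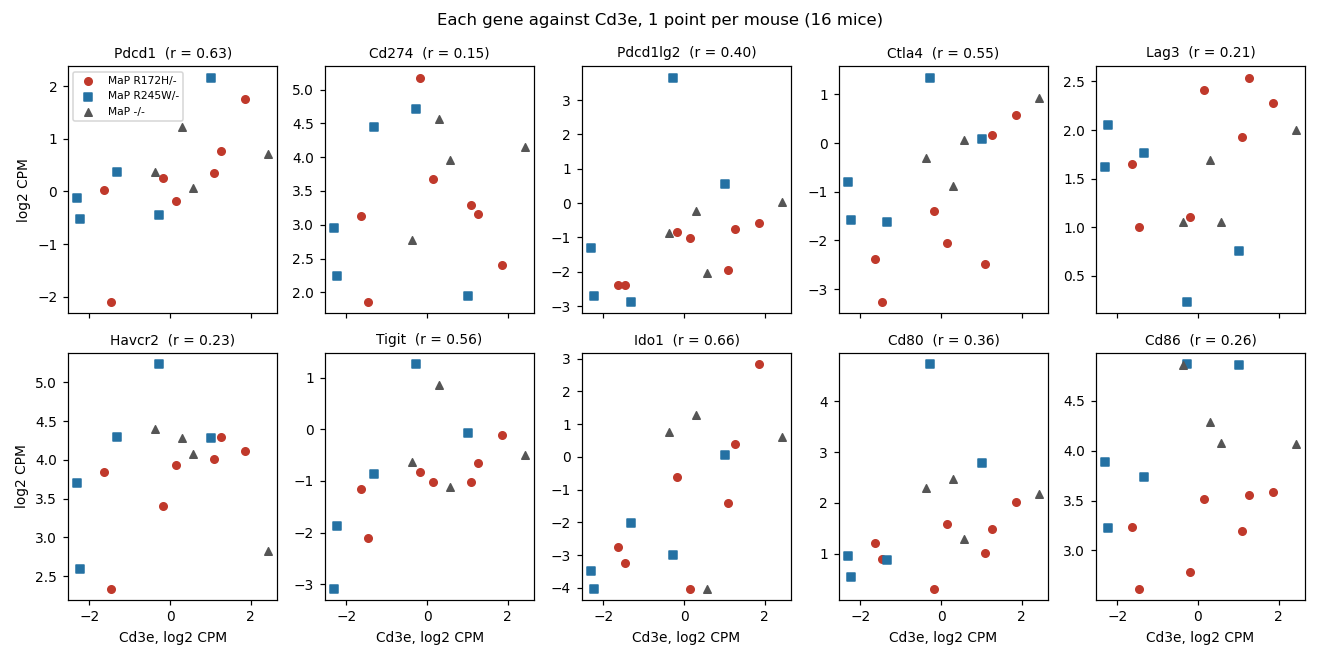
Log2 CPM of each gene (vertical axes) against log2 CPM of Cd3e (horizontal axes), 1 point per mouse (n = 16, tumors of 1 mouse summed), coloured by genotype, with Pearson's r above each panel. Ido1 (0.66), Pdcd1 (0.63), Tigit (0.56) and Ctla4 (0.55) have the highest values and Cd274 (0.15) the lowest.

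Over 16 mice, without regard to genotype, 10 correlations with Cd3e were computed on log2 CPM, with unadjusted two-sided permutation p-values. Ido1 had r = 0.66 (p = 0.00626) and rho = 0.57 (p = 0.0224), and Pdcd1 r = 0.63 (p = 0.00784) and rho = 0.69 (p = 0.00377) by permutation. For Tigit r was 0.56 (p = 0.0226) and rho 0.59 (p = 0.017), and for Ctla4 r was 0.55 (p = 0.0293) and rho 0.50 (p = 0.0506), by permutation. Without JM833 and RM0014, the mice farthest from the median of Cd3e, r was 0.61 for Ido1, 0.68 for Pdcd1, 0.46 for Tigit and 0.53 for Ctla4, with permutation p of 0.0218, 0.00671, 0.0961 and 0.0517. Without these mice, the relations of Tigit and Ctla4 therefore no longer had a p below 0.05.

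Within the 7 MaP R172H/- mice, all on the HiSeq, r was 0.75 for Ido1, 0.79 for Pdcd1, 0.79 for Tigit and 0.77 for Ctla4. Within the 9 mice on the NovaSeq it was 0.60, 0.59, 0.56 and 0.69 in the same order, with exact permutation p of 0.0891, 0.0958, 0.111 and 0.0413. Lag3 was the gene whose relation differed in sign, with r = 0.71 on the HiSeq and -0.18 on the NovaSeq (exact permutation p = 0.0889 and 0.635), and the difference was not tested. Havcr2 had 0.69 and 0.04 on these platforms, and 0.23 over 16 mice (permutation p = 0.384). For Cd80 (0.36), Cd86 (0.26), Lag3 (0.21) and Cd274 (0.15) the permutation p over 16 mice was between 0.172 and 0.585. Pdcd1lg2 had r = 0.40 (permutation p = 0.123) but rho = 0.60 (permutation p = 0.0161), with JM1126 far above the other mice at a middle level of Cd3e.

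**Figure D5:**
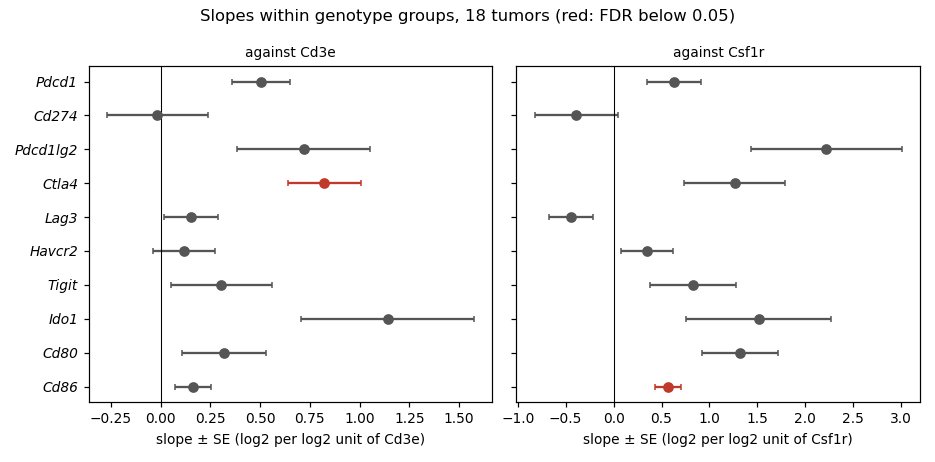
Slopes of the 10 genes within genotypes (horizontal axes, log2 per log2 unit, bars of 1 SE) on Cd3e and on Csf1r, from edgeR fits of 18 tumors, in red where the FDR over all genes is below 0.05. Ctla4 is called on Cd3e at 0.82 and Cd86 on Csf1r at 0.57, and Cd274 lies below 0 in both panels.

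Against Csf1r, fitted in the same way, Cd86 passed the test with a slope of 0.57 ± 0.13 and an FDR of 0.0238 in edgeR, where 4.15% of genes were called with a positive slope. The call was lost without JM1564 (FDR 0.0984) or JM1133 (FDR 0.0503). With Cd3e in the same fit the slope of Cd86 was 0.54 and no longer passed (FDR 0.0529), while Lag3 was called with a negative slope of -0.78 (FDR 0.0429). Cd80 (1.32 ± 0.40, FDR 0.0583) and Pdcd1lg2 (2.22 ± 0.79, FDR 0.098) had steeper slopes with wider errors. Without JM1126 that of Cd80 was 0.76 with an FDR of 0.0366, and without JM1233 the slopes were 1.95 for Cd80 (FDR 0.012) and 3.03 for Pdcd1lg2 (FDR 0.0283). Ctla4 (1.26 ± 0.53, FDR 0.15) and Pdcd1 (0.63 ± 0.28, FDR 0.175) were also positive without passing. An unadjusted p below 0.05 was found for 5 of the 10 genes, against 13.1% of all genes with a positive slope. Lag3 (-0.45 ± 0.23) and Cd274 (-0.39 ± 0.43) were the genes with slopes below 0.

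Between the 10 genes, over the 16 mice, 38 of 45 pairs had r above 0 and 18 had r above 0.5, with a median of 0.43. Lag3 was in all 7 pairs below 0, and Cd274 had no pair above 0.43. Pairs of other genes were not counted for comparison, and the permutation p-values below are not adjusted. The highest was Pdcd1lg2 with Cd80, at r = 0.90 and rho = 0.80 (permutation p = 2e-05 and 0.00035). It was 0.76 without JM1126 and JM1133, 0.97 on the NovaSeq and 0.34 within MaP R172H/- mice. Cd80 with Cd86, the B7 pair, had r = 0.79 and rho = 0.79 (permutation p = 0.0001 and 0.00045), 0.74 without JM1126 and JM1233, 0.83 on the NovaSeq and 0.85 within MaP R172H/- mice. Pdcd1 with Ido1 had r = 0.74 and rho = 0.83 (permutation p = 0.00025 and 7e-05), and 0.91 without YZ7 and JM1233, with 0.79 within MaP R172H/- mice and 0.74 on the NovaSeq. Lag3 gave the lowest pairs, among them r = -0.45 with Cd80 and -0.42 with Cd86 (permutation p = 0.0778 and 0.109). Without JM1126 and JM1233 these were 0.20 and -0.04. Both pairs were of opposite sign on the platforms (0.81 and 0.97 within MaP R172H/- mice, -0.76 and -0.82 on the NovaSeq).

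Among 22481 genes, those most like each of the 10 in log2 CPM over the 16 mice were as follows, given as descriptions. Cd86 was followed most closely by Milr1 (r = 0.96), Cd300c2 (0.96) and Bmp2k (0.95). The gene nearest to Cd274 was Gm36043 (0.91), which overlaps it on the opposite strand, ahead of Gm9902 (0.84) and Lpgat1 (0.84). Pdcd1 was nearest to Trgc2 (0.90), a constant segment of the gamma T cell receptor, Ubd (0.86) and Fgb (0.85), and Ido1 to Fgb (0.88), Thsd7a (0.84) and Gm44129 (0.83). Ctla4 was nearest to Clec1b (0.87), Naip5 (0.86) and Gm5547 (0.85), Tigit to P2ry14 (0.88), Qpct (0.86) and Ptpn22 (0.85), and Havcr2 to Pls3 (0.91), Gm37199 (0.90) and Sgms2 (0.89). Cd80 followed Ppp1r3d, Lman1l and Dse (0.92 each), Pdcd1lg2 followed Gm31718 (0.92), Cd80 (0.90) and Pilrb2 (0.89), and Lag3 followed Gabrg3 (0.88), Gm50035 (0.86) and Mir205hg (0.84). Among all genes ranked by likeness, Cd3e stood at the percentile of 99.3 for Ido1, 98.6 for Pdcd1, 94.8 for Tigit and 94.0 for Ctla4, and Csf1r at 97.95 for Cd86, 96.35 for Cd80 and for Pdcd1lg2, 94.99 for Ctla4 and 2.87 for Lag3. Lag3 had r = -0.58 with Csf1r over 16 mice and -0.29 without JM1233 and JM1126 (permutation p = 0.0157 and 0.329). Its r was 0.53 within MaP R172H/- mice and -0.74 on the NovaSeq (exact permutation p = 0.23 and 0.0208). For Ctla4 the correlation with Csf1r was r = 0.57 and rho = 0.76 (permutation p = 0.0164 and 0.00108), beside 0.55 and 0.50 with Cd3e. Taken as deviations from the genotype means, they were 0.49 and 0.69 with Csf1r, beside 0.73 and 0.68 with Cd3e. The difference between the markers was not tested.

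The surrounding pathway was read from gene lists. Of the 14 costimulatory and other inhibitory receptors, 2 were called lower in MaP R172H/- relative to MaP -/- tumors and 0 higher, and 12 were below 0 with a median of -1.10. The called receptors were Cd200r1, the myeloid receptor of CD200 (-1.57 ± 0.32, FDR 0.0102), and Cd244a, a receptor of NK and myeloid cells (-1.36 ± 0.35, FDR 0.0285). Of 14 tested ligands of these receptors, 1 was called lower, Cd47, the ligand of SIRP-alpha on phagocytes (-1.27 ± 0.21, FDR 0.00245), with a median of -0.35 over the list and 8 below 0. Over all genes in this comparison, 4.73% were called lower and 49.8% were below 0. The call of 1 ligand in 14 is near that background. None of 5 tested genes of tryptophan catabolism, the pathway of IDO1, was called in edgeR, with 2 at an unadjusted p below 0.05 (Tdo2, -0.997 ± 0.39, and Kmo, -1.24 ± 0.54). Against MaP -/- tumors, 0 genes of these lists were called in MaP R245W/- tumors. On Cd3e, Kmo was called with a slope of 0.77 ± 0.13 (FDR 0.00512).

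T cell markers were not called in any comparison of genotypes in edgeR. Of 14, all were below 0 in MaP R172H/- against MaP -/- tumors, with a median of -0.77 and 0 at an unadjusted p below 0.05, and 13 were below 0 in MaP R245W/- against MaP -/- tumors, with a median of -1.23 and 1 at an unadjusted p below 0.05 (Cd3e, -1.98 ± 0.85, FDR 0.4). Between the mutants 1 of 14 had an unadjusted p below 0.05. Their summed level was 15.2 to 57.8 CPM in MaP R172H/-, 10.4 to 74.2 in MaP R245W/- and 20.4 to 212.8 in MaP -/- tumors, and 0 of them was at 0 in any tumor. The medians of this sum were 32.01, 17.45 and 28.71 CPM in the same order, so that of MaP R172H/- was not below that of MaP -/- tumors. The 212.8 CPM belonged to JM833-T2, and the next highest MaP -/- tumor was JM833-T1 at 52.7 CPM. How far the log2 fold changes of these markers rested on JM833-T2 was not tested. With Cd3e as a covariate Cd86 kept its call against MaP -/- tumors (log2 fold change -1.06, FDR 0.0243) and Ctla4 was called lower in MaP R172H/- relative to MaP R245W/- tumors (-2.18, FDR 0.0392). In the same fit Pdcd1lg2 (-3.48, FDR 0.0285) and Cd86 (-1.16, FDR 0.0204) were called lower too, and none of the other genes was called with Cd3e as a covariate in these 3 comparisons. Over all genes, that fit called 1733 between the mutants, against 2114 without the covariate. In the fit without the covariate, the value of Pdcd1lg2 was -0.42 when JM1126 was left out. What part T cell content had was not tested beyond these values.

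Interferon gamma induces Cd274 and Ido1 in many cell types, so 14 of its response genes were read beside them. In edgeR 0 of the 14 were called in either comparison with MaP -/- tumors, with 0 at an unadjusted p below 0.05 and medians of 0.07 for MaP R172H/- and -0.30 for MaP R245W/- tumors. Their sum was highest in YZ11, at 2179 CPM, which was also the highest tumor for Cd274, and lowest in JM1564, at 326.9 CPM, where Cd274 was 4.76 CPM. In JM1126, with Cd274 at 26.4 CPM, the sum was 347.5 CPM. Of the genes that neighbour Cd274 and Pdcd1lg2 on chromosome 19, 0 of 9 tested were called in either comparison with MaP -/- tumors (edgeR), where 2 and 0 had an unadjusted p below 0.05. Plgrkt (-0.63 ± 0.19, FDR 0.0495) and Ric1 (-0.51 ± 0.14, FDR 0.0248) were lower in MaP R172H/- relative to MaP R245W/- tumors.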

How the data were processed

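Bulk tumor RNA from 18 mammary tumors was sequenced. The authors depleted total RNA of ribosomal RNA with Ribo-Zero Gold and, per the submitters' processing notes, used FastQC 0.11.9, STAR 2.7.10b and RSEM 1.3.3 with GRCm39. The annotation was GENCODE M34. The deposited values are estimated counts per gene from RSEM, given as whole numbers without normalization. Multimapping or overlapping reads are therefore assigned by RSEM's model.

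Counts of all genes were fitted with edgeR 4.0.16 in R 4.3.3 (TMM, filterByExpr, quasi-likelihood test), and genes at a Benjamini-Hochberg FDR below 0.05 over all genes tested were called. Each mutant was fitted with the MaP -/- tumors. The direct comparison of the mutants and the slopes used all 18 tumors. Slopes were taken on log2 CPM with a prior count of 2. P-values treat tumors of 1 mouse as independent, and summing them was an alternative. Correlations used 16 mice and 100000 permutations, or exact enumeration within platforms. Lengths, positions and upstream windows came from GENCODE M39, which matched 56620 of 57126 genes. Named were the 10 genes, Cd3e, Csf1r, the 3 genes most like each member and, from each gene list, up to 4 called genes or otherwise up to 2 with the smallest p. Aif1 was named outside this rule, after its values were seen. The members and lists were chosen with earlier results of these data known. Alternatives were DESeq2 1.42.0 (size factors, Wald test), other filters on low counts and on fold change, Cd3e or Csf1r as covariates, other fits, and each tumor left out. The edgeR comparison of each mutant with MaP -/- tumors and the edgeR slope were tried on simulated counts, and the other steps were not.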

Additional observations from a re-analysis of the deposited data

Results flagged for a closer look

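Tigit in the MaP -/- tumors held a tumor far from the others: JM663-T2, at 2.93 CPM, lay apart from the nearest of the other 5 by 0.678 of the whole range of the group on the log2 CPM scale. It was the only one of 30 gene and genotype groups so marked, and chance marks about 1 in 20 groups. Tigit was 0.581 CPM in JM663-T1, the other tumor of the same mouse.

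Cd86 differed between the mutants in their distance from the MaP -/- tumors. The difference between MaP R172H/- and MaP R245W/- tumors was -1.02 on the log2 scale (-1.024, FDR 0.0353 in the edgeR fit of 18 tumors). The other 9 genes did not pass the threshold in this fit, whereas DESeq2's Wald test also called Pdcd1lg2 and Cd80. In edgeR, 9.4% of all genes were called in this comparison. With each tumor left out, the FDR of Cd86 was 0.0157 to 0.119 and was below 0.05 in 12 of 18 fits. Without JM1126 the edgeR values of Pdcd1lg2 and Cd80 were -0.42 and -0.31.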

How the results depend on the processing

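For MaP R172H/- against MaP -/- tumors, 1 of the 10 genes was called under most alternatives, but 0 at an absolute log2 fold change above 2 or with Csf1r as a covariate. Over all genes, those settings called 287 and 388, against 1760 in the main fit. Between the mutants the 1 call became 3 with DESeq2's Wald test or with Cd3e as a covariate. Over all genes, these called 3690 and 1733, against 2114 in the main fit. The 1 call became 0 without a filter on low counts, with Csf1r as a covariate or in a fit of the 12 mutant tumors. Over all genes, these called 1410, 2036 and 1499. The 1 call between the mutants was also lost at an absolute log2 fold change above 2, where fewer of all genes were called too. On Cd3e the 1 call became 0 without the genotype term, with both markers in 1 fit, or with tumors of 1 mouse summed. Over all genes these called 847, 131 and 284, against 365 in the main fit. On Csf1r the 1 call became 3 without the genotype term, where 2016 genes were called against 1434 in the main fit. With both markers in 1 fit the count on Csf1r stayed at 1 but was Lag3 in place of Cd86. Without JM833-T2 and JM1126, chosen after seeing the data, the calls were 0 between the mutants, 0 on Cd3e and 2 on Csf1r. Over all genes they were 1467, 148 and 1043. Omitting the tumors singly, the calls were 1 to 1 for MaP R172H/- and 0 to 0 for MaP R245W/- against MaP -/- tumors, 0 to 2 between the mutants, 0 to 1 on Cd3e and 0 to 3 on Csf1r. The log2 fold change of Cd86 in MaP R172H/- against MaP -/- tumors was then -1.19 to -0.93, with FDR 0.0105 to 0.0411. The cause of these changes was not tested. No called value changed its direction, but several uncalled ones did. In MaP R245W/- against MaP -/- tumors, Pdcd1 was 0.0298 with mice summed and 0.38 with Cd3e as a covariate, where Ctla4 was 1.002 and Cd86 0.14. With Csf1r as a covariate, Ctla4 was 0.0674 and Ido1 0.67 in MaP R172H/- against MaP -/- tumors, and Pdcd1 was 0.37 and Tigit 0.0002 between the mutants. The slope of Cd274 on Cd3e was 0.0929 without the genotype term, 0.12 with both markers, 0.0563 with mice summed and 0.0103 with a prior count of 0.5. Lag3 correlated with Cd3e at -0.18 on the NovaSeq. Without JM833-T2 and JM1126, the MaP R245W/- against MaP -/- values were 0.19 for Pdcd1, -0.093 for Pdcd1lg2, 0.19 for Lag3, -0.18 for Havcr2 and -0.57 for Cd80, and between the mutants 0.33 for Cd274 and 0.21 for Tigit. With each tumor left out, ranges that crossed 0 were, for MaP R245W/- against MaP -/- tumors, -1.002 to 0.0779 for Pdcd1, -0.55 to 2.46 for Pdcd1lg2, -1.08 to 0.32 for Ctla4, -0.10 to 0.54 for Havcr2, -1.24 to 0.44 for Tigit, -0.62 to 1.003 for Cd80 and -0.28 to 0.10 for Cd86. For MaP R172H/- against MaP -/- tumors they were -0.32 to 0.0122 for Havcr2 and -2.02 to 0.38 for Ido1, and between the mutants -0.67 to 0.33 for Cd274, -0.68 to 0.62 for Pdcd1 and -1.02 to 0.22 for Tigit. The slopes that crossed 0 were those of Cd274 on Cd3e (-0.13 to 0.14) and on Csf1r (-0.75 to 0.061) and of Pdcd1 on Csf1r (-0.0801 to 0.75). The depth limits Ctla4, Tigit, Pdcd1lg2 and Ido1, each at 3 counts or fewer in at least 1 tumor.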
